A study of Mus musculus with 18 samples.

Results

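The hyaluronan and versican matrix genes were followed in Tcf21-lineage cardiac fibroblasts of the newborn mouse heart. The group held 10 of the 55453 gene symbols with counts and was chosen by function: the hyaluronan synthases Has1, Has2 and Has3, the hyaluronidases Hyal1 and Hyal2, the hyaluronan-binding proteoglycans Vcan (versican) and Acan (aggrecan), the link protein Hapln1, the hyaluronan-modifying protein Tnfaip6 (TSG-6) and the receptor Cd44. All 10 had a row in the count table, and 9 passed the filter on low counts. Has3 did not pass.

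RNA was sequenced from 18 libraries, 3 in each of 6 groups, of GFP+ cells from C57BL/6J mice that carried Tcf21-MerCreMer and the Rosa-mTmG reporter. Atria and valves were dissected away, and cells were sorted from ventricular tissue toward the apex. All groups, controls included, received tamoxifen at P1, so the GFP mark stands for cells in which the Tcf21 promoter was active in the first days of life. Unoperated pups gave the P2 baseline and P10 baseline groups. Operated pups, with the apex removed or with sham surgery only, at P2 or at P10, were collected 3 days later, at P5 or P13, and gave the P2 sham, P2 resected, P10 sham and P10 resected groups. The older hearts were digested with collagenase and dispase for longer than the younger ones, so digestion time and age cannot be told apart. The sources used here do not give the sex or the number of pups behind a library.

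Hyaluronan is a long sugar chain with no protein core, made at the plasma membrane by the Has enzymes from UDP-sugars and pushed straight into the matrix. Versican and aggrecan carry chondroitin sulfate chains and dock on hyaluronan, link protein locks them in place, TSG-6 transfers heavy chains of the inter-alpha-inhibitor onto hyaluronan, CD44 binds it at the cell surface, and hyaluronidases cut it. In the embryonic heart, Has2 and versican build the cardiac jelly, and in later life this matrix is known from wounds and inflamed tissue.

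The libraries held 10462737 to 22980554 counts. Tcf21 (202.5 to 447 CPM) and Pdgfra (256 to 878 CPM), which define cardiac fibroblasts, were present in all 18 libraries. The summed level of 6 neutrophil markers was 0 to 13.5 CPM: Cxcr2 had no count in any library, Ly6g none in 16, Retnlg none in 11, Csf3r none in 9, and S100a8 and S100a9 none in 7 each. Levels are given in CPM, the count of a gene scaled to a common library size after TMM normalization. In bulk samples, fewer cells of a type and less RNA per cell cannot be told apart. Sample quality weights, which limma estimated over all tested genes from the distance of each library to its group, were lowest in replicate 1 of the P2 sham (0.223), P10 baseline (0.293) and P10 sham (0.361) groups, against 0.528 to 2.24 in the other 15 libraries. These 3 libraries held the highest Has1, Has2, Vcan and Tnfaip6 and the lowest Hyal2 of their groups. Results that rest on them are therefore given with and without them. They were chosen after the data were seen, so p-values without them are descriptive.

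Per kilobase of exon, Tnfaip6 was the most abundant of the 10 genes and Has3 the least. Over the 18 libraries the mean level per kilobase was 72.2 CPM for Tnfaip6, 20.9 for Vcan, 16.0 for Hyal2, 12.2 for Has2 and 7.002 for Has1. It was 3.66 CPM per kilobase for Cd44, 2.696 for Hyal1, 0.279 for Hapln1, 0.214 for Acan and 0.0239 for Has3. Tnfaip6 exceeded Vcan in 17 of 18 libraries, Has2 exceeded Has1 in 17 and Hyal1 exceeded Hapln1 in 18. The other neighbours in this order changed places between libraries: Vcan lay above Hyal2 in 11 libraries, Hyal2 above Has2 in 12, Has1 above Cd44 in 8, Cd44 above Hyal1 in 11, Hapln1 above Acan in 9 and Acan above Has3 in 11. This order pools the ages: in the P10 window the mean per kilobase was 15.3 CPM for Hyal2 and 14.9 CPM for Vcan, and 10.9 CPM for Has1 and 10.4 CPM for Has2, and in the P2 window it was 3.75 CPM for Cd44 and 3.07 CPM for Has1. Libraries of both ages held Has2 and Has1 transcripts, with the aggrecan and link protein genes close to the limit of detection.

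**Figure D1:**
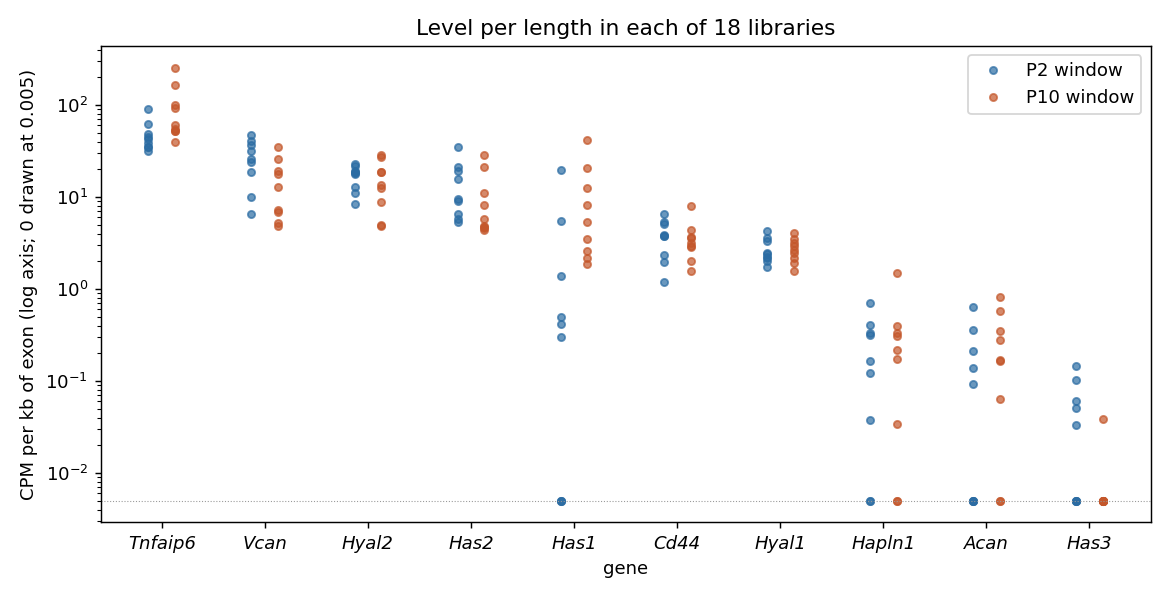
Level of each of the 10 genes per kilobase of exon (log axis, CPM per kb) in the 18 libraries, with the P2 window in blue and the P10 window in orange and a level of 0 drawn at the dotted line. Tnfaip6 lay above Vcan in 17 of 18 libraries, and Has1 spread from 0 to 41.7 CPM per kb in P10 resected replicate 3, above the highest Has2 level of 34.8 CPM per kb.

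Among the synthases, Has1 was at higher levels in the P10 than in the P2 window in most libraries. Has1 (chr17:17843323-17855205, minus strand, GRCm38, 3 exons) encodes a synthase that is little expressed in most resting tissues. In the P2 window it was at 2.21, 1.35 and 0 CPM in the baseline libraries 1 to 3, at 24.6, 0 and 0 CPM after sham surgery, and at 1.88, 6.24 and 88.4 CPM after resection. The P10 window held 55.8, 24.0 and 11.6 CPM at baseline, 94.2, 8.34 and 9.81 CPM after sham surgery, and 36.9, 15.6 and 188 CPM after resection. All 9 libraries of the P10 window thus held Has1, and all 9 lay above the median of the P2 window, where 3 libraries had no count, while P2 resected replicate 3 and P2 sham replicate 1 reached into the P10 range.

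Between the windows (the 3 P10 groups against the 3 P2 groups, 9 libraries each), Has1 had a log2 fold change of 2.72 (95% confidence interval 0.59 to 4.84), which did not pass the test (edgeR adjusted p = 0.0848). At baseline the groups did not overlap, and the log2 fold change was 4.65 (SE 1.93, edgeR adjusted p = 0.201). The window value was called without P2 sham replicate 1 (log2 fold change 6.12, adjusted p = 0.00387) and without P2 resected replicate 3 (3.71, adjusted p = 0.0349), both of which are P2 libraries with high Has1. Without the 3 libraries of low weight it was 5.18 (adjusted p = 0.00542). In the fits without P2 sham replicate 1 the remaining P2 sham libraries had no Has1 count, so 6.12 and 5.18 depend on the small count added to a group at 0 and are no bounds. Over all alternatives the edgeR, limma and DESeq2 adjusted p-values ran from 3.20e-18, in the fit without a filter, to 0.188.

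Has2 (chr15:56665627-56694539, minus strand), the main synthase of the developing heart, lacked this pattern. Its levels were 66.1, 80.2 and 40.6 CPM at P2 baseline, 90.0, 24.3 and 22.4 CPM after P2 sham surgery, and 38.2, 27.4 and 148 CPM after P2 resection. They were 89.7, 24.7 and 19.4 CPM at P10 baseline, 121, 20.4 and 18.5 CPM after P10 sham surgery, and 34.8, 20.1 and 47.2 CPM after P10 resection. In P2 sham, P2 resected, P10 baseline and P10 sham, 1 library stood well above the other two, and the ages overlapped. The window log2 fold change was -0.44 (95% confidence interval -1.40 to 0.53, edgeR adjusted p = 0.591).

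Without the 3 libraries of low weight, the mean of Has2 over the 7 remaining P10 libraries was 26.5 ± 10.7 CPM (SD), against 55.9 ± 42.4 CPM over 8 P2 libraries. The log2 fold change was then -0.94 (adjusted p = 0.0446), the only one of its 26 alternatives in which Has2 was called, with adjusted p-values up to 0.995 in the others. An antisense gene, Has2os, shares 4.30% of the Has2 exon bases, and reads were counted without strand.

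The share of Has1 among the synthases was therefore higher in most P10 libraries. Per kilobase, Has1 made up 0% to 36.0% of the sum of Has1 and Has2 in the 9 libraries of the P2 window, with a median of 3.04%. In the P10 window it made up 27.7% to 78.9%, with a median of 42.1%. The highest P2 value, in P2 resected replicate 3, was above those of P10 sham replicates 2 and 3, and the other P2 libraries were at 20.4% or less. Of the libraries of low weight, P2 sham replicate 1 had 20.4%, against 0% in both other libraries of its group, and P10 sham replicate 1 had 42.1%, the highest of its group. P10 baseline replicate 1, at 36.9%, lay between the other libraries of its group. This is a description, since it was chosen after the levels were seen.

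Has3 (chr8:106870242-106884566) was close to absent, with 58 counts in all and none in 12 of 18 libraries. In the P2 window 5 libraries held it, at 0.214 to 0.929 CPM, and in the P10 window 1 did, at 0.249 CPM. After sham surgery it had 34 counts at P2 and none at P10, so it was at least 9.92-fold higher at P2, taking 3 counts over the P10 sham group as the limit that a count of 0 allows. This bound was 6.10 without P2 sham replicate 1, 14.9 without P2 sham replicate 3, and 6.21 to 7.21 without a P10 sham library. Of its exon bases, 5.52% are shared with Chtf8 on the other strand, from which so few reads cannot be told apart. In the fit without a filter, its window difference had an adjusted p of 0.0661 by edgeR.

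Versican was the matrix protein gene of the group with the highest counts and was at a lower mean level in the P10 window. Vcan (chr13:89655312-89742509, minus strand, 16 exons) was at 526, 680.4 and 350.2 CPM at P2 baseline, at 593, 95.4 and 143 CPM after P2 sham surgery, and at 369.8, 269 and 456 CPM after P2 resection. At P10 baseline it was at 506, 98.8 and 75.0 CPM, after P10 sham surgery at 376, 103 and 70.02 CPM, and after P10 resection at 256, 185 and 275 CPM. Only 2 of 9 P10 libraries lay above the P2 median, and both were libraries of low weight.

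The window log2 fold change of Vcan was -0.80 (95% confidence interval -1.69 to 0.08, edgeR adjusted p = 0.226), and at baseline it was -1.19 (adjusted p = 0.407). Without P2 sham replicate 1 the window value was -0.40 (adjusted p = 0.568). Without P10 baseline replicate 1 both values were larger, -1.26 (adjusted p = 0.0259) and -2.58 (adjusted p = 0.0441). Without all 3 libraries of low weight, the window value was -1.22 (edgeR adjusted p = 0.000187) and the baseline value was -2.58 (adjusted p = 0.000213). The window means were then 361 ± 195 CPM (SD, n = 8) at P2 and 152 ± 86.5 CPM (n = 7) at P10. These 3 libraries were chosen after the data were seen and held the highest Vcan of their groups, so both p-values are descriptive. Vcan was called in 5 of 26 alternatives of the window comparison, all toward a lower level at P10.

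Tnfaip6 came closest to the threshold in the comparison of the windows. Tnfaip6 (chr2:52038009-52056686, plus strand, 6 exons) encodes TSG-6, which inflammatory signals are known to induce. It was at 77.3, 54.1 and 73.3 CPM at P2 baseline, at 105, 83.1 and 59.1 CPM after P2 sham surgery, and at 59.3, 66.4 and 153 CPM after P2 resection. The P10 libraries held 172, 89.8 and 104 CPM at baseline, 284, 88.4 and 92.7 CPM after sham surgery, and 157, 68.4 and 436 CPM after resection. The baseline groups did not overlap, and 8 of 9 P10 libraries lay above the P2 median, but 5 of 9 were below the P2 maximum.

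Its window mean was 166 ± 121 CPM (SD, n = 9) at P10 and 81.1 ± 30.9 CPM (n = 9) at P2, with a log2 fold change of 1.00 (95% confidence interval 0.31 to 1.69, edgeR adjusted p = 0.0516). It was called in 10 of 26 alternatives, among them DESeq2 (1.02, adjusted p = 0.0125) and upper-quartile scaling (1.02, adjusted p = 0.0418). Leaving out any 1 of 4 libraries also gave a call: P2 resected replicate 3, P10 sham replicates 2 and 3, and P10 resected replicate 2 (adjusted p = 0.0178 to 0.0450). Without the 3 libraries of low weight it was 0.70 (adjusted p = 0.119), and over all alternatives the adjusted p ran from 1.18e-06 to 0.139. The summed level of 12 genes that enzymatic dissociation is known to induce was 3428 to 8476 CPM in the P2 window and 7101 to 15141 CPM in the P10 window, and 5 of those 12 rose, none fell and 7 did not pass. Its part in the Has1 and Tnfaip6 levels was not tested.

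Aggrecan and link protein were at the edge of detection. Acan (chr7:79053483-79115099), the proteoglycan of cartilage, had no count in 6 of 18 libraries and at most 6.07 CPM. It had no count in the 3 P2 baseline libraries, 6.07, 2.62 and 0 CPM at P10 baseline, 0.697, 0 and 1.04 CPM after P2 sham surgery, 0, 1.23 and 0.472 CPM after P10 sham surgery, 4.75, 2.65 and 1.597 CPM after P2 resection, and 2.09, 1.27 and 4.35 CPM after P10 resection. Against 3 counts over the P2 baseline group, Acan was at least 57.6-fold higher at P10 baseline, or at least 26.1-fold without P10 baseline replicate 1, 36.6- to 41.7-fold without 1 P2 baseline library and 86.4-fold without P10 baseline replicate 3. The edgeR adjusted p at baseline was 0.0520. Over the windows its log2 fold change was 2.82 (95% confidence interval 0.61 to 5.04, adjusted p = 0.0865), which depends on the small count added to groups at 0.

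Hapln1 (chr13:89539796-89611652, plus strand) lies beside Vcan on chromosome 13 and did not follow it from library to library, being highest in the same library in 3 of 6 groups. It was at 0 to 4.10 CPM in the P2 window and at 0 to 8.80 CPM in the P10 window, with a window log2 fold change of -0.65 (95% confidence interval -2.57 to 1.26, edgeR adjusted p = 0.699). An interval of this width leaves severalfold changes in either direction undetectable at these counts.

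Cd44, Hyal1 and Hyal2 had like mean levels in the 2 windows, which pool baseline and operated pups. Cd44 (chr2:102811141-102901665, minus strand), the main surface receptor for hyaluronan, had a mean of 25.4 ± 11.6 CPM (SD, n = 9) over P2 and 24.3 ± 12.7 CPM over P10 libraries, a log2 fold change of -0.06 (95% confidence interval -0.62 to 0.49). Hyal2 (chr9:107567945-107572779), a membrane-anchored hyaluronidase, was at 54.9 ± 15.9 CPM and 50.3 ± 28.9 CPM, a log2 fold change of -0.16 (-0.84 to 0.51). The neighbouring Hyal1 (chr9:107576927-107581710), a lysosomal hyaluronidase, was at 10.1 ± 3.10 CPM and 10.3 ± 2.97 CPM, a log2 fold change of 0.01 (-0.52 to 0.53). The widest of these intervals reaches -0.84, and the signs of all 3 values turned under at least 1 alternative. For Hyal1, 51.9% of the exon bases are shared with Naa80 or Hyal3 on the same strand, so its level is uncertain.

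**Figure D2:**
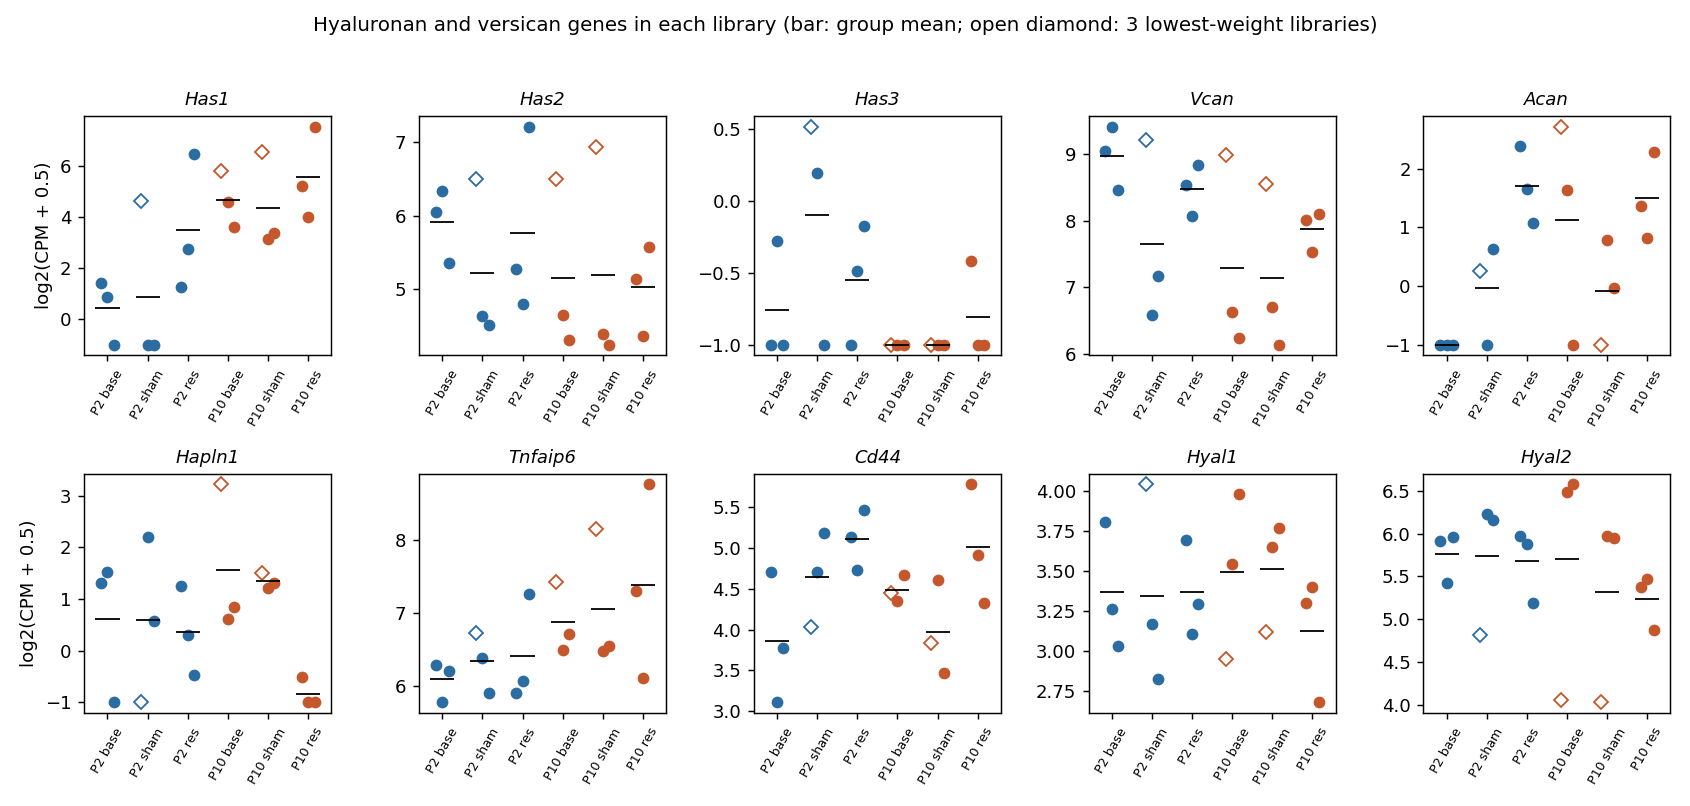
Level of each of the 10 genes in each library, as log2(CPM + 0.5), in the 6 groups (P2 in blue, P10 in orange; bars are group means and open diamonds the 3 libraries of lowest quality weight). The diamonds are the highest points of their groups for Has1, Has2, Vcan and Tnfaip6 and the lowest for Hyal2.

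None of the 9 tested genes passed the edgeR test in a comparison of the ages. Between the windows 0 of 9 were called, where 13.5% of all 16170 tested genes were, and 3 of 9 had an unadjusted p under 0.05 (Has1, Acan and Tnfaip6), where 28.3% of all genes did. DESeq2 called 2 there (Acan and Tnfaip6), against 3031 of all 16170 genes. With quality weights, limma's voom called 1 (Vcan), against 4569 of all 16170 genes. Between the same windows, 4 of 10 fibroblast, 2 of 12 macrophage and 4 of 8 mural cell markers rose and none fell, and 6 of 10 cardiomyocyte markers fell, with summed levels of 309 to 1452 CPM at P2 and 156 to 809 CPM at P10. Of 6 tested valve and cartilage markers 1 rose and 1 fell, with summed levels of 202 to 395 CPM at P2 and 154 to 298 CPM at P10. These sums were mostly Sox9, with a mean of 229.7 CPM over the 18 libraries, against 7.73 CPM for Prg4, the next highest. None of 8 endothelial, 7 epicardial and 4 neutrophil markers tested passed. The part of these cells in the levels of the 9 genes was not tested. The P10 and P2 baseline groups gave 0 calls against 4.38% of all genes and 2 of 9 at an unadjusted p under 0.05 (Has1 and Acan) against 18.7%, and the groups did not overlap for 2 of 9 (Has1 and Tnfaip6), against 22.4% of all genes. DESeq2 called 1 of the 9 at baseline (Acan), against 1600 of all 16170 genes, and voom 2 (Vcan and Acan), against 3645.

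After sham surgery, the ages gave 0 calls of 9 (3.18% of all genes), none at an unadjusted p under 0.05 (16.3%), and none by DESeq2 or voom. After resection there were 0 calls (0.86% of all genes), and 1 gene, Tnfaip6, had an unadjusted p under 0.05 (8.77%), with a log2 fold change of 1.25 (edgeR adjusted p = 0.533), or 0.30 without P10 resected replicate 3. DESeq2 and voom called none, and DESeq2 gave no adjusted p for Acan and Hapln1 there.

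**Figure D3:**
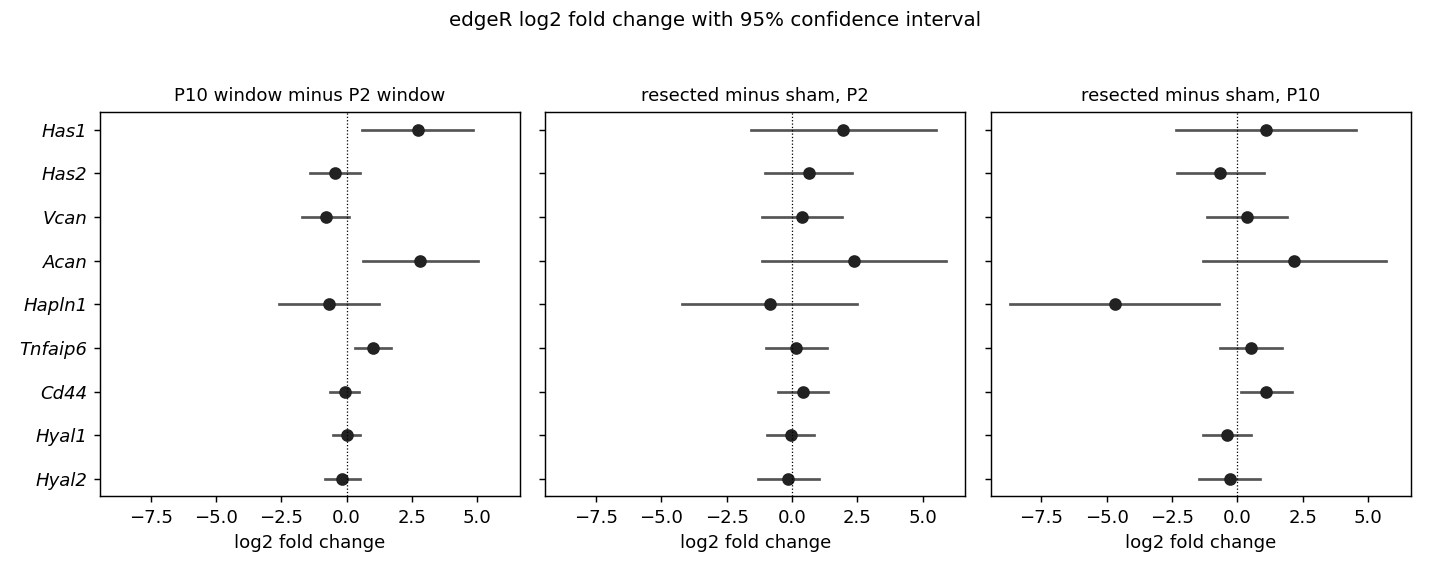
Log2 fold change (points) with 95% confidence interval (lines) from edgeR for the 9 tested genes, for the P10 window minus the P2 window and for resected minus sham at P2 and at P10. The intervals for Has1, Acan and Tnfaip6 lie above 0 in the first panel, and the widest intervals belong to Has1, Acan and Hapln1.

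A second question was whether injury moved the matrix genes against sham surgery at the same age, which 3 libraries in each group could show only for large changes. None of the 9 was called by edgeR, DESeq2 or voom at P2 or at P10, and 0% of all tested genes were called by edgeR at either age. At P2, 0 of 9 had an unadjusted p under 0.05 (4.51% of all genes). At P10, 2 of 9 did (Hapln1 and Cd44), against 4.09% of all genes. Groups did not overlap for 1 of 9 at P2 (Acan), against 8.47% of all genes, and for 2 of 9 at P10 (Acan and Hapln1), against 8.68%.

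Cd44 was the more abundant of the genes with an unadjusted p under 0.05 after P10 resection. It was at 13.7, 24.0 and 10.6 CPM in the P10 sham libraries and at 54.5, 29.7 and 19.6 CPM in the P10 resected libraries, so that 2 of 3 resected libraries lay above all sham libraries. The log2 fold change was 1.10 (95% confidence interval 0.13 to 2.08, edgeR adjusted p = 1), and 0.61 to 1.51 when 1 library was left out. At P2 Cd44 was at 15.9, 25.5 and 36.0 CPM after sham surgery and at 34.5, 26.0 and 43.8 CPM after resection, a log2 fold change of 0.43 (-0.53 to 1.39, adjusted p = 1). The difference between the ages in the resection effect was 0.67 (-0.68 to 2.03, adjusted p = 1.00 by edgeR), so the ages were not shown to differ. Summed over 12 macrophage marker genes, a cell type that also carries CD44, the level was 102 to 369 CPM in the P10 sham and 76.0 to 1103 CPM in the P10 resected libraries, and 12 of 12 of these genes had a log2 fold change above 0 at both ages, with none called. The macrophage sum and Cd44 were highest in the same P10 sham library (replicate 2) and lowest in the same P10 resected library (replicate 3), but highest in different P10 resected libraries (replicates 2 and 1). The sum of 8 epicardial markers in P10 resected libraries 1 to 3 was 57.0, 11.1 and 3.96 CPM, in the order of Cd44, against 0 to 9.25 CPM in the P10 sham libraries, and 7 of 7 tested had a log2 fold change above 0 at P10, with none called. For 8 endothelial markers the sum was 835, 358 and 549.7 CPM in P10 resected libraries 1 to 3, highest where Cd44 was highest, against 305 to 536 CPM in the P10 sham libraries, and 7 of 8 had a log2 fold change above 0 (median 1.55), with none called. In P2 resected libraries 1 to 3 the macrophage sum was 454, 202 and 72.9 CPM and the epicardial sum 12.2, 7.65 and 4.35 CPM. Both were lowest in replicate 3, where Cd44 was highest. The endothelial sum was 507, 231 and 276 CPM there. The part of these cells in the Cd44 level was not tested.

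Acan and Hapln1 had very low counts, and neither passed the test after resection. Acan had 31 counts after P2 sham surgery and 172 after P2 resection, and 29 and 118 counts at P10, with every resected library above every sham library of its age. The edgeR adjusted p was 1 at both ages. Hapln1 had 47, 28 and 42 counts in the P10 sham libraries and 4, 0 and 0 in the P10 resected libraries, a log2 fold change of -4.70 (95% confidence interval -8.70 to -0.69, adjusted p = 1). At P2 Hapln1 had 0, 89 and 15 counts after sham surgery and 32, 17 and 4 counts after resection, and the groups overlapped. Among 6 tested markers of valve and cartilage, tissues known for Acan and Hapln1, 5 had a log2 fold change above 0 at P10 (median 2.24) and 3 at P2 (median 1.25), and 3 and 1 had an unadjusted p under 0.05, with none called. Valves had been dissected away before digestion. The summed level of all 8 markers was 154 to 184 CPM after sham surgery and 162 to 238 CPM after resection at P10, and 216 to 253 CPM and 202 to 264 CPM at P2. Sox9 made up most of each sum, so the sums say little about the other markers. Its mean over the 18 libraries was 229.7 CPM, against 7.73 CPM for Prg4, the next highest. Epicardial markers had a median log2 fold change of 4.28 at P10 and -0.39 at P2. The part of these cells in the Acan and Hapln1 levels was not tested.

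For the synthases, Vcan and Tnfaip6 the direction after resection rested on single libraries. At P2 the log2 fold change was 1.97 for Has1, 0.64 for Has2 and 0.17 for Tnfaip6, and without P2 resected replicate 3 it was -1.005, -0.47 and -0.39. At P10 the change was 1.10 for Has1 and 0.51 for Tnfaip6, and without P10 resected replicate 3 it was -0.54 and -0.48. Has2 at P10 went from -0.65 to 0.81 without P10 sham replicate 1. Vcan had a log2 fold change of 0.40 at P2 and 0.38 at P10, with intervals of -1.13 to 1.92 and -1.15 to 1.91. Without the 3 libraries of low weight, Vcan gave 1.62 at P2 and 1.46 at P10, with edgeR adjusted p-values of 0.0534 and 0.159. With these 3 left out, both P2 sham libraries that remained, at 95.4 and 143 CPM, were below all P2 resected libraries.

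The comparison of sham with baseline libraries gave no call either, and since sham libraries were collected 3 days later than baseline libraries, surgery and growth cannot be told apart in it. It gave 0 of 9 calls at P2 (0% of all genes) and 0 of 9 at P10 (0.00618% of all genes), with 1 of 9 (Acan) and 0 of 9 at an unadjusted p under 0.05, against 7.6% and 7.4% of all genes. Acan had no count at P2 baseline and 31 after P2 sham surgery, at least 11.5-fold more, or 6.92-fold without P2 sham replicate 3, 7.33- to 8.36-fold without 1 baseline library and 17.3-fold without P2 sham replicate 2. The difference between the ages in the resection effect gave 0 of 9 calls (0% of all genes) and none at an unadjusted p under 0.05 (2.88%). The difference between the ages in sham minus baseline gave 0 of 9 calls (0%) and 1, Acan, at an unadjusted p under 0.05 (6.6%). DESeq2 and voom called none of the 9 in these 4 comparisons. Without the 3 libraries of low weight, 1 of 9 was called between P2 sham and P2 baseline, against 463 of all 16765 genes tested in that fit. This was Vcan, whose remaining sham libraries at 95.4 and 143 CPM lay below the 350.2 to 680.4 CPM of P2 baseline.

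Within groups, Has1, Has2, Vcan and Tnfaip6 were mostly highest in the same library. Has2 and Vcan were highest in the same library in 6 of 6 groups, and Hyal2 was lowest in that library in 6 of 6. Has1 and Tnfaip6 were likewise highest in the same library in 6 of 6 groups, and Has1 and Has2, Has1 and Vcan, and Has2 and Tnfaip6 in 5 of 6. For Vcan the spread was widest in the 3 groups that hold a library of low weight, and it differed 6.75-fold between the P10 baseline libraries, 6.22-fold between the P2 sham libraries and 5.37-fold between the P10 sham libraries, against 1.49- to 1.94-fold in the other 3 groups. For Tnfaip6 it was widest in P10 resected (6.37-fold), where no library had a low weight. For Has1 it was 47.1-fold in P2 resected, also without a library of low weight, the widest among groups with no count of 0. No ratio can be given for Has1 in P2 sham, which ran from 0 to 24.6 CPM and holds a library of low weight, or in P2 baseline (0 to 2.21 CPM). Without the library of low weight, Vcan was at 98.8 and 75.0 CPM at P10 baseline, 95.4 and 143 CPM after P2 sham surgery and 103 and 70.02 CPM after P10 sham surgery. Hyal2 differed 5.87-fold between the P10 baseline libraries in the opposite direction. Hyal2 was at 16.1, 88.9 and 94.7 CPM at P10 baseline and at 15.9, 62.2 and 61.4 CPM after P10 sham surgery, with replicate 1 low in both groups. The other genes had no such tie: with Has2, Cd44 and Hyal1 were highest in the same library in 1 of 6 groups each, Acan in 2 and Hapln1 in 3. These counts were not set against those of all genes.

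The libraries in which Has2 and Vcan were highest also differed in other cell markers. In 5 of 6 groups that library had the lowest summed level of 12 macrophage markers, in 5 of 6 the highest of 10 fibroblast markers and in 5 of 6 the highest of 8 mural cell markers. The macrophage sum was 7.76 CPM in P2 sham replicate 1 against 94.3 and 187 CPM in the other P2 sham libraries, and 18.99 CPM in P10 baseline replicate 1 against 97.0 and 241 CPM. The fibroblast sum was 47351 to 94541 CPM in the P2 window and 79364 to 115903 CPM in the P10 window. Its largest part was the collagen gene Col3a1, with a mean of 37540 CPM over the 18 libraries, against 290 CPM for Tcf21 and 462 CPM for Pdgfra. The epicardial sum was 0 in P10 baseline replicate 1 and P10 sham replicate 1 and lowest in 5 of 6 groups where Has2 was highest. The sum of 12 dissociation stress genes was highest in that library in 4 of 6 groups, at 8476 CPM in P2 sham replicate 1 against 4857 and 3428 CPM, and at 13551 CPM in P10 sham replicate 1 against 7101 and 7847 CPM, but it was lowest there at P10 baseline. The part of these markers in the levels of the matrix genes was not tested.

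**Figure D4:**
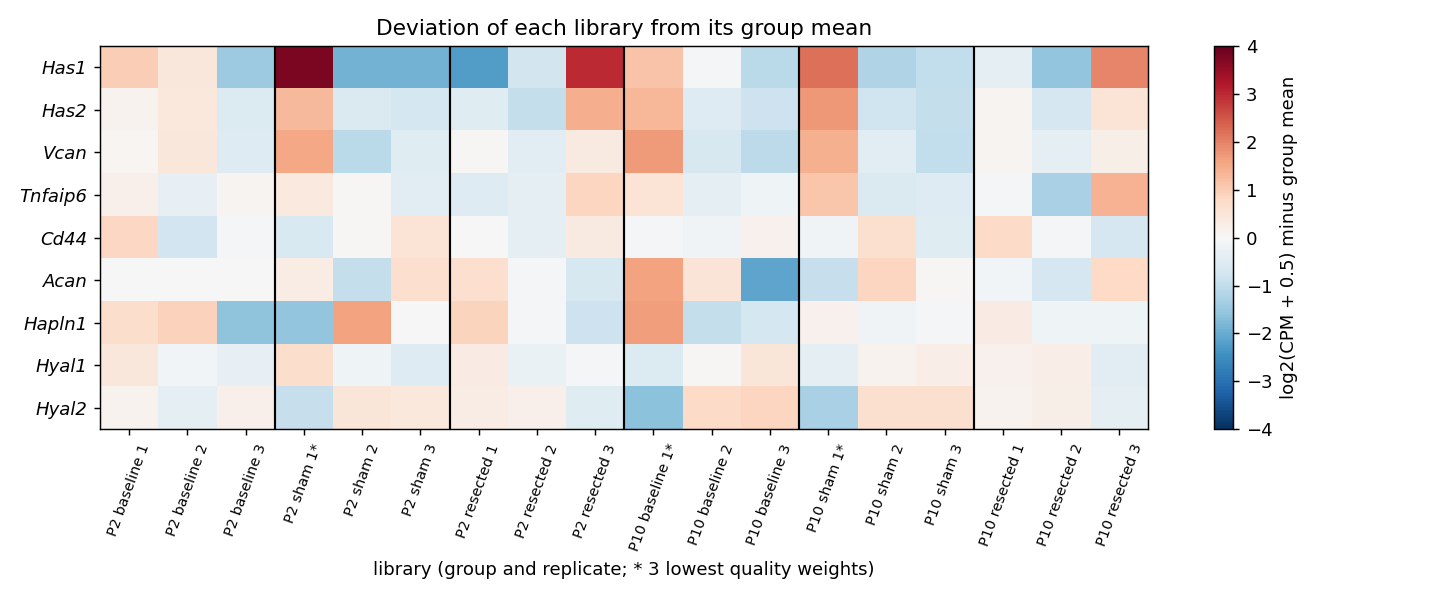
Deviation of each library (columns, 18, in 6 groups set apart by lines) from the mean of its group for the 9 tested genes (rows), in log2(CPM + 0.5), with red above and blue below the mean. Has1, Has2, Vcan and Tnfaip6 are red together in P2 sham 1, P2 resected 3, P10 baseline 1, P10 sham 1 and P10 resected 3, where Hyal2 is blue.

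Sequence before the start of 3 of the genes that varied together is shown so that their promoters can be compared. It was taken from RefSeq (GRCm38.p6), which held 8 of the 10 genes, runs 5′ to 3′ on the strand of the gene from base 250 before the RefSeq start, and ends before the first annotated exon. The searched motifs were the AP-1 site TGANTCA, the cyclic AMP response element TGACGTCA, the GC box GGGCGG, the TATA box TATAAA, the kappa B site and the TEAD site CATTCC, on both strands, and capitals mark each match.
Has1 (chr17:17855206-17855438, minus strand): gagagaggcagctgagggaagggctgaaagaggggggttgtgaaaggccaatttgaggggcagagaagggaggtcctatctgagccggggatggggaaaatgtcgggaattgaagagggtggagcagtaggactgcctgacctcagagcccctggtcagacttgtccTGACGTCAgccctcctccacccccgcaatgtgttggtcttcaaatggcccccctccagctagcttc
Tnfaip6 (chr2:52037863-52038008, plus strand): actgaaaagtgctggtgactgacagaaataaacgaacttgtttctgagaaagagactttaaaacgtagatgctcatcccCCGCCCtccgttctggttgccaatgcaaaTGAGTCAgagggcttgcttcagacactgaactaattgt
Vcan (chr13:89742513-89742762, minus strand): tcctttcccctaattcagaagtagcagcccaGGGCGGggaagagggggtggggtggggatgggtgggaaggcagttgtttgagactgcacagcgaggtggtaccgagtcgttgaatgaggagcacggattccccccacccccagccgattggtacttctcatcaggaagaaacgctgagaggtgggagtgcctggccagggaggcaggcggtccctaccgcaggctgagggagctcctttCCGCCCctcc

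Each sequence held at least 1 motif. Has1 had a full cyclic AMP response element that began 83 bases before the RefSeq start, a match held by 1.32% of all 32851 RefSeq windows cut to the same bases. Tnfaip6 had an AP-1 site at 142 bases (3.86% of windows) and a GC box on the other strand at 171 bases (16.1%). Vcan had GC boxes at 219 and 10 bases (32.7%) and none of the other motifs. None of the 6 motifs was found in all 3 sequences, no matches overlapped, and a match says only that these letters are there.

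Other genes of the pathway differed between the ages. Of 68 other symbols listed for the pathway, 58 were tested, and 23 (39.7%) passed the test between the windows, 18 higher and 5 lower at P10, against 13.5% of all tested genes. Their median log2 fold change was 0.35, against -0.06 over all genes. None passed in either comparison of resection with sham surgery. The list was drawn up with earlier results of these data known.

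Hyaluronan is built from UDP-glucuronic acid and UDP-N-acetylglucosamine. Of 8 genes that make the UDP-sugars, 3 rose, 1 fell and 4 did not pass. Gfpt2, 1 of 2 genes for the rate-limiting step of the hexosamine pathway, went from 373 ± 90.9 CPM in the P2 window to 1029 ± 356 CPM in the P10 window, with 9 libraries each and errors as SD, which gave 1.43 on the log2 scale (edgeR adjusted p = 1.81e-05), and its windows did not overlap. Gfpt1, the other gene for this step, had a log2 fold change of -0.40 and did not pass (adjusted p = 0.150), and is named after its values were seen. Uap1, which makes UDP-N-acetylglucosamine, rose by 1.14 (adjusted p = 0.000165), and Ugdh, which makes UDP-glucuronic acid, by 0.38 (adjusted p = 0.0484), a call made in only 7 of 26 alternatives (adjusted p up to 0.105). Pgm3, an enzyme of the same hexosamine route, fell by 0.63 on the log2 scale (adjusted p = 0.0156), with 28.3% of its exon bases shared with Dop1a. Gfpt2 was also higher at P10 in each comparison of single ages, at baseline (1.18, adjusted p = 0.0261), after sham surgery (1.82, adjusted p = 0.00177) and after resection (1.30, adjusted p = 0.0402).

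Among 6 tested genes of hyaluronan turnover other than Hyal1 and Hyal2, 2 rose, 1 fell and 3 did not pass. Cemip2, a cell surface hyaluronidase, went from 71.0 ± 34.1 to 23.6 ± 8.08 CPM, a log2 fold change of -1.55 (edgeR adjusted p = 0.00102). Hexa, which encodes a lysosomal enzyme, rose by 0.58 (adjusted p = 0.0341), with 12.8% of its exon bases shared with another gene, and its call was made in 14 of 26 alternatives (adjusted p up to 0.0853). Of 4 tested receptors, Hmmr, which is also a mitotic spindle gene, fell by 2.69 on the log2 scale (adjusted p = 0.00127), from 44.2 ± 10.4 to 7.61 ± 9.33 CPM. Layn, a membrane receptor for hyaluronan, rose by 0.73 (adjusted p = 0.0119), and 2 did not pass.

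Some genes of the Itih family, which includes the heavy chains that TSG-6 transfers onto hyaluronan, were higher at P10. Of 6 tested genes for hyaluronan-binding matrix, Itih2, Itih4 and Itih3 rose and 3 did not pass, among them Itih5, which had a mean of 668 ± 184 CPM at P2 and 705 ± 253 CPM at P10 (adjusted p = 0.864) and is named after its values were seen. Itih2 was at 0.0777 ± 0.107 CPM in the P2 window and at 2.57 ± 1.94 CPM in the P10 window (edgeR adjusted p = 0.00111). Itih4 went from 0.502 ± 0.982 to 3.32 ± 2.75 CPM (adjusted p = 0.00243) and Itih3 from 0.230 ± 0.464 to 2.17 ± 2.26 CPM (adjusted p = 0.0109). The levels of these 3 genes are low, and their fitted log2 fold changes of 5.69 to 6.08 depend on groups with few or no counts.

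Of 7 proteases that cleave versican, 2 rose, none fell and 5 did not pass. Adamts15 went from 75.8 ± 16.3 to 178 ± 46.4 CPM, a log2 fold change of 1.23 (edgeR adjusted p = 7.13e-05), with no overlap between the windows. Adamts8 rose by 0.84 (adjusted p = 0.0431), with 10.6% of its exon bases shared with another gene, and was called in 13 of 26 alternatives (adjusted p up to 0.101). Of 6 tested partners of versican in the matrix, Fbln1 and Fbln2, fibulins that bind its C-terminal domain, rose by 1.37 and 0.93 (adjusted p = 3.17e-05 and 0.000262). Tnc, the gene of tenascin-C, fell by 1.46 on the log2 scale (adjusted p = 0.00148), and 3 did not pass.

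Of 21 genes that build the chondroitin sulfate chains of versican and aggrecan, 5 rose, 1 fell and 15 did not pass. The chain polymerising factors Chpf and Chpf2 rose by 0.57 and 0.62 (edgeR adjusted p = 0.00983 and 0.0106), and Xylt2, which starts the chain, by 0.56 (adjusted p = 0.0221), called in 22 of 26 alternatives (adjusted p up to 0.0628). The other genes that rose, the sulfotransferase genes Chst7 and Chst12, were called in 20 and 11 of 26 alternatives (adjusted p up to 0.0560 and 0.112) and are named after their values were seen. Chsy1, the synthase that extends it, fell by 0.62 on the log2 scale (adjusted p = 0.00634), from 124 ± 28.8 to 80.6 ± 14.4 CPM. For Chpf2, 44.1% of the exon bases are shared with other genes.

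**Figure D5:**
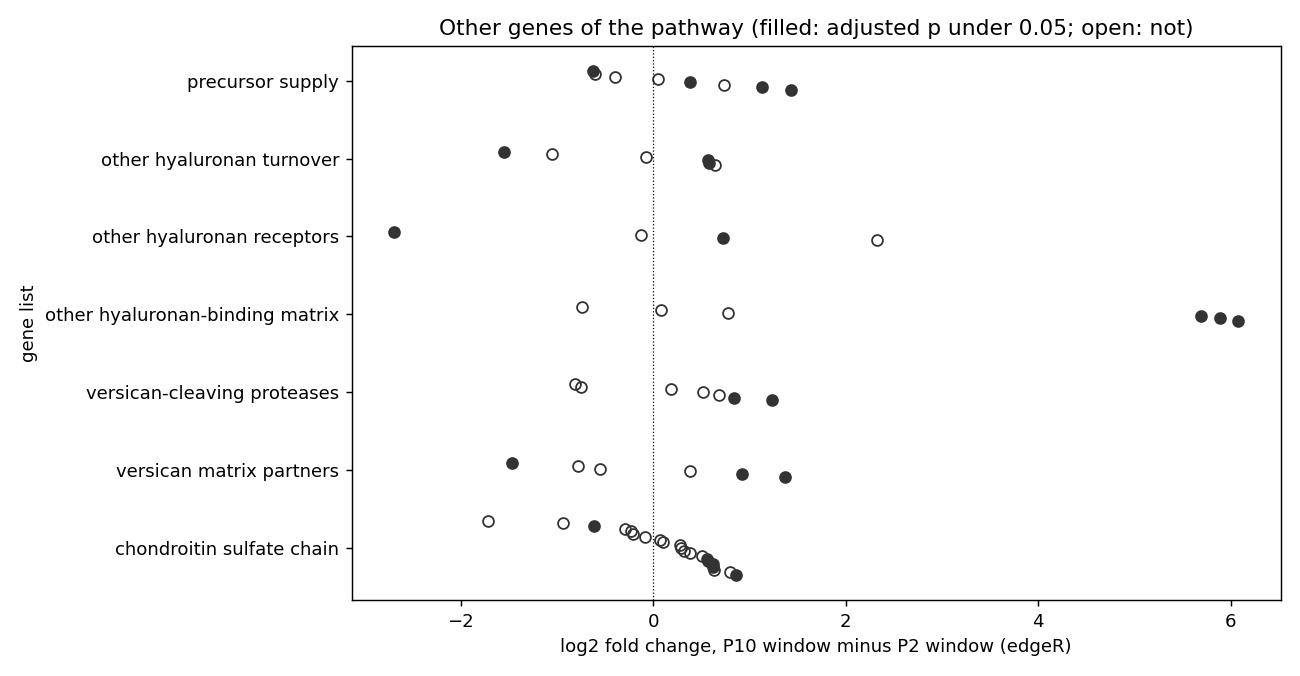
Log2 fold change between the windows (P10 minus P2, edgeR) for the 58 tested genes of the 7 pathway lists, 1 point a gene, filled where the adjusted p was under 0.05. Filled points lie on both sides of 0, 18 higher and 5 lower at P10, and the 3 points near 6 are Itih2, Itih3 and Itih4.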

How the data were processed

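The deposited values are whole-number counts per gene symbol, not normalized. The authors trimmed reads with fastp 0.20.0, mapped them with STAR 2.7.0f to GRCm38.p6 with a GENCODE annotation, and counted exon reads with featureCounts of Subread 1.6.4 without strand. RNA had been amplified with a low-input kit. Here edgeR 4.0.16 (R 4.3.3) fitted all 18 libraries together by quasi-likelihood, each group with its own mean, after filterByExpr (minimum count 10, minimum total 15) and TMM scaling. Benjamini-Hochberg adjusted p under 0.05 over 16170 genes was called. Alternatives used DESeq2 1.42.0 and limma 3.58.1. The tests were run first on simulated counts.

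The genes and lists were chosen with earlier results of these data known. All 10 genes were named, and of each pathway list at most 3 called genes a direction, by adjusted p. The values of 1 such gene are not reported here. Nothing says that replicates came from separate pups, so p-values measure the spread between these libraries. Floors and bounds cover counting error only. Exon lengths and positions came from GENCODE M21. Same-numbered libraries deviated together with correlations of -0.135 to 0.328, and all 3 pairs were over 0.1 in 2 of 7 comparisons: P10 with P2 after resection, and P10 sham with baseline.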

Additional observations from a re-analysis of the deposited data

How the results depend on the processing

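Of the values of single members, 193 kept their direction and side of the threshold when scaling, filter, tool, block or libraries of low weight were changed, 20 became calls and 3 turned in direction. With 1 library left out, 416 did not change in this way, 9 became calls and 25 turned. Between the windows, 0 of 9 members were called by edgeR with TMM, 1 with RLE or upper-quartile factors, the stricter filter (1 CPM in 9 libraries) or voom, 2 with DESeq2, 4 without a filter and 0 to 2 with 1 library left out. Of all 16170 genes, TMM called 2183, RLE 2199, upper-quartile factors 2201, voom 4569 and DESeq2 3031. The stricter filter called 2170 of 12686 genes and the fit without a filter 2759 of 28906. At baseline, 1 was called with upper-quartile factors, the stricter filter or DESeq2, 2 with voom, 3 without a filter and 0 to 1 with 1 library left out. Of all 16170 genes, upper-quartile factors called 751 there, DESeq2 1600 and voom 3645. The stricter filter called 809 of 12686 genes and the fit without a filter 1155 of 28906. Without a filter, 1 was called between the ages after sham surgery, 1 after resection, 1 between P2 sham and P2 baseline and 1 in the difference between the ages in sham minus baseline, and leaving out 1 library called 0 in each. Of all 28906 genes without a filter, 911, 526, 110 and 171 were called in these comparisons. Leaving out the 3 libraries of lowest weight together, chosen after seeing the data, called 3 members between the windows, 2 at baseline and 1 between P2 sham and P2 baseline. Of all 16765 genes tested then, 3778, 2820 and 463 were called.

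With the replicate number as a block, edgeR called 2 members between the windows, Vcan (-0.97, adjusted p = 0.0454) and Tnfaip6 (0.91, adjusted p = 0.0459), against 2745 of all 16170 genes. No member call changed in the other 9 comparisons. Of 21 same-numbered pairs, 10 had correlations over 0.1, and all 3 pairs did in 2 of 7 comparisons. Such correlations do not show whether the numbers pair samples, and the labels do not say.

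Directions turned for 8 values after resection. At P2, leaving out 1 library gave -1.005 to 12.18 for Has1 (the higher value is fitted against a P2 sham group with no count and is no bound), -0.47 to 1.61 for Has2, -0.028 to 1.62 for Vcan and -0.39 to 0.41 for Tnfaip6. At P10 it gave -0.54 to 3.14 for Has1, -1.06 to 0.81 for Has2, -0.0058 to 1.46 for Vcan and -0.48 to 1.28 for Tnfaip6, and Has2 was 0.39 with voom and 0.81 without the 3 libraries. Between the windows it gave -0.089 to 0.16 for Hyal1 and -0.23 to 0.12 for Cd44, and Hyal2 was 0.016 without the 3 libraries. The causes were not tested.

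Of the 58 pathway genes, 17 to 32 were called between the windows under all alternatives, against 23, and 17 to 25 with 1 library left out. Single calls of these genes were lost 2 times under the other settings and 67 times with 1 library left out. Groups of 3 libraries limit what resection could show, with Has1 differing 47.1-fold within P2 resected and running from 0 to 24.6 CPM within P2 sham. The Acan and Has3 bounds take 3 counts over a group at 0. Antisense or overlapping genes could not be separated, since reads were counted without strand.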
